A study of Mus musculus with 12 samples.

Results

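RNA-seq counts of 42 autophagy and mitophagy genes were examined in NIH3T3 cells, an established line of mouse embryonic fibroblasts. The genes were chosen by symbol and were found by gene name in the table of deposited counts, where all 42 of the 42 were present among 54446 genes. All 42 passed the filter on low counts and were tested beside the rest of 14724 genes. The 12 samples made up 4 groups of 3: wild type NIH3T3 in normoxia, the same cells in hypoxia, and cells with the dNVEGF deletion (ΔN-VEGF) in normoxia and in hypoxia. Hypoxia lasted 16 h at below 0.2% oxygen, and normoxic dishes were kept in air with carbon dioxide for a similar time. The deletion was made in NIH3T3 cells with Cas9 and a pair of guides that removed the coding region of N-VEGF, the amino-terminal part of the long VEGF isoform. A reporter cassette with drug resistance was inserted first and was then removed with the VCre recombinase, after which non-fluorescent cells were sorted. No such steps are given for the wild type cells, and the methods do not say which clone or clones were sequenced, so the deletion and the history of the line cannot be told apart. The labels speak of triplicates without saying whether these were separate cultures, so the p-values measure the spread between these samples.

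Autophagy encloses cytoplasm in a double membrane and delivers it to lysosomes. A kinase complex around ULK1 starts the process, a class III PI3-kinase complex marks the membrane with a phosphoinositide, lipid transfer proteins feed its growth, and enzymes related to ubiquitin conjugation attach ATG8 proteins (the LC3 and GABARAP families) to it. Receptors that bind ATG8 proteins bring in selected cargo, and in mitophagy that cargo is mitochondria. BNIP3 and BNIP3L (also called NIX) are mitophagy receptors of the outer mitochondrial membrane and are known targets of the hypoxia-inducible factors.

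The treatment and the labels were checked first. Vegfa, the edited gene, was at 86.2, 39.4 and 82.7 CPM (counts scaled to library size and composition) in wild type normoxia, 277, 272 and 291 in wild type hypoxia, 37.3, 34.2 and 35.5 in ΔN-VEGF normoxia and 437, 419 and 430 in ΔN-VEGF hypoxia. Vegfa rose 4.04-fold and 12.01-fold under hypoxia in these lines (adjusted p = 5.8e-05 and 6.6e-07; 3.33-fold in wild type cells without replicate 2 of normoxia). These are counts over the whole gene, and the deletion takes out only a stretch near its 5′ end, so they do not test the deletion. All 10 of 10 known hypoxia-responsive genes rose at least 2-fold in both lines, among them Car9 and Ankrd37. Fibroblast markers were abundant, with Col1a1 at no less than 454 CPM and Vim at no less than 4925 CPM in any sample, while Epcam and Myod1 had no count and Kdr, Ptprc, Spi1 and Krt18 did not exceed 0.102 CPM. Of the other markers of epithelium, blood and muscle, Cdh1 was at 0.284 to 1.91 CPM, Cd68 at 2.84 to 6.68 CPM and Des at 1.04 to 5.80 CPM. Cd68 was called higher under hypoxia in both lines (log2 0.60 and 0.58), and Des was called lower in ΔN-VEGF normoxia than in wild type normoxia (-1.80). When libraries were scaled by their totals alone (total counts), Cd68 was at 0.37 and 0.17 with no call. Of the endothelial markers, Cdh5 stood at 19.4 to 24.4 CPM in ΔN-VEGF hypoxia and at 1.28 to 7.29 CPM elsewhere, and Pecam1 did not exceed 0.611 CPM. Cdh5 was called higher under hypoxia in both lines (log2 1.47 and 3.26) and higher in ΔN-VEGF than in wild type hypoxia (1.88), and Pecam1 was called higher in ΔN-VEGF cells under hypoxia (1.17). With total counts Pecam1 was at 0.76 there with no call. Of the 6 fibroblast markers, Vim was called higher under hypoxia in both lines (1.20 and 1.53) and Pdgfrb lower (-1.94 and -1.44), S100a4 higher in wild type cells (0.55), and in ΔN-VEGF cells Col1a1 and Col1a2 higher (1.58 and 0.71) and Thy1 lower (-1.15). Between the lines in hypoxia, Col1a1 and Col1a2 were higher in ΔN-VEGF cells (1.58 and 0.79). With total counts, 2 of the 6 rose and 3 fell under hypoxia in ΔN-VEGF cells (all genes 15.3% and 44.5%). Between the lines in hypoxia, 1 was then higher and 1 lower (all genes 4.57% and 22.2%). The part of what these markers stand for in the results was not tested. Total counts were 30519052 to 43056690 per sample. Replicate 2 of wild type normoxia stood apart: across the 14724 genes its log2 CPM correlated at 0.956 and 0.957 with the other wild type normoxia samples, which correlated at 0.996 with each other. Replicate 2 of ΔN-VEGF normoxia stood apart less, at 0.986 against 0.996. Replicate 2 of wild type hypoxia also lay further from its group (chi-square per gene 16.9 and 18.3, against 2.96 between the other 2) at correlations of 0.994. Values without replicate 2 of wild type normoxia are given for the counts and for each member whose call under hypoxia changed.

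The first question was how hypoxia changed the 42 genes in each line. In wild type cells, 8 rose and 3 fell at an adjusted p below 0.05, against 18.2% higher and 18.3% lower of all tested genes. The 8 were Atg13, Rb1cc1, Atg2b, Atg9a, Gabarap, Sqstm1, Bnip3 and Bnip3l, and the 3 were Ulk1, Uvrag and Tfeb. In ΔN-VEGF cells, 17 rose and 5 fell, against 26.9% and 26.4% of all genes. As shares of the 42 these were 19% and 7.14% in wild type cells and 40.5% and 11.9% in ΔN-VEGF cells. The 8 genes that rose in wild type cells also rose in ΔN-VEGF cells, where Ulk2, Pik3c3, Wipi1, Wipi2, Map1lc3b, Gabarapl1, Calcoco1, Tfe3 and Pink1 rose in addition. Uvrag and Tfeb fell in both lines, Atg3, Atg4a and Tax1bp1 were called lower in ΔN-VEGF cells alone and Ulk1 in wild type cells alone, and 19 genes were called in neither line. A call in 1 line and not in the other is no test of a difference between the lines, which is given below as the difference of the responses.

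The sizes of these changes were uneven. A change of at least 2-fold was met by 4 of the genes that rose and 1 that fell in wild type cells, and by 9 and 2 in ΔN-VEGF cells, where 15.7% and 27.2% of all genes met it in either direction. The median log2 fold change of the 42 was 0.02 in wild type cells (all genes, -0.07) and 0.27 in ΔN-VEGF cells (all genes, -0.01). In wild type cells 10 of the 42 had every hypoxia sample above every normoxia sample and 5 had every one below, or 35.7% of the members against 45% of all tested genes. In ΔN-VEGF cells these were 23 and 8, or 73.8% against 70.5%. The values are shares of each sample's RNA, and fewer cells of a kind and less RNA of a gene per cell cannot be told apart in them.

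Both the sample that stands apart and the scaling moved these counts. Without wild type normoxia replicate 2, 11 members rose and 10 fell in the wild type (27.1% and 26.9% of 15145 genes then tested). In ΔN-VEGF cells, whose samples were all kept, that fit gave 23 and 8 (32.8% and 34.3%). When libraries were scaled by their totals alone, all genes had a median of -0.30 (wild type) and -0.41 (ΔN-VEGF), and the members split into 7 higher and 15 lower (all genes 12.8% and 32.7%) and into 10 higher and 14 lower (15.3% and 44.5%). Of these members, 3 higher and 1 lower changed at least 2-fold in wild type cells, and 4 and 4 in ΔN-VEGF cells. Relative to the median of all genes, that of the members lay 0.28 higher in ΔN-VEGF cells under both scalings, and 0.09 and 0.07 higher in wild type cells. A change of scaling moves all genes nearly alike, so these offsets are no test of the scaling. Directions below are by TMM scaling, and of the genes called higher with it, 7 of 8 and 10 of 17 were also called higher with total counts.

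**Figure D1:**
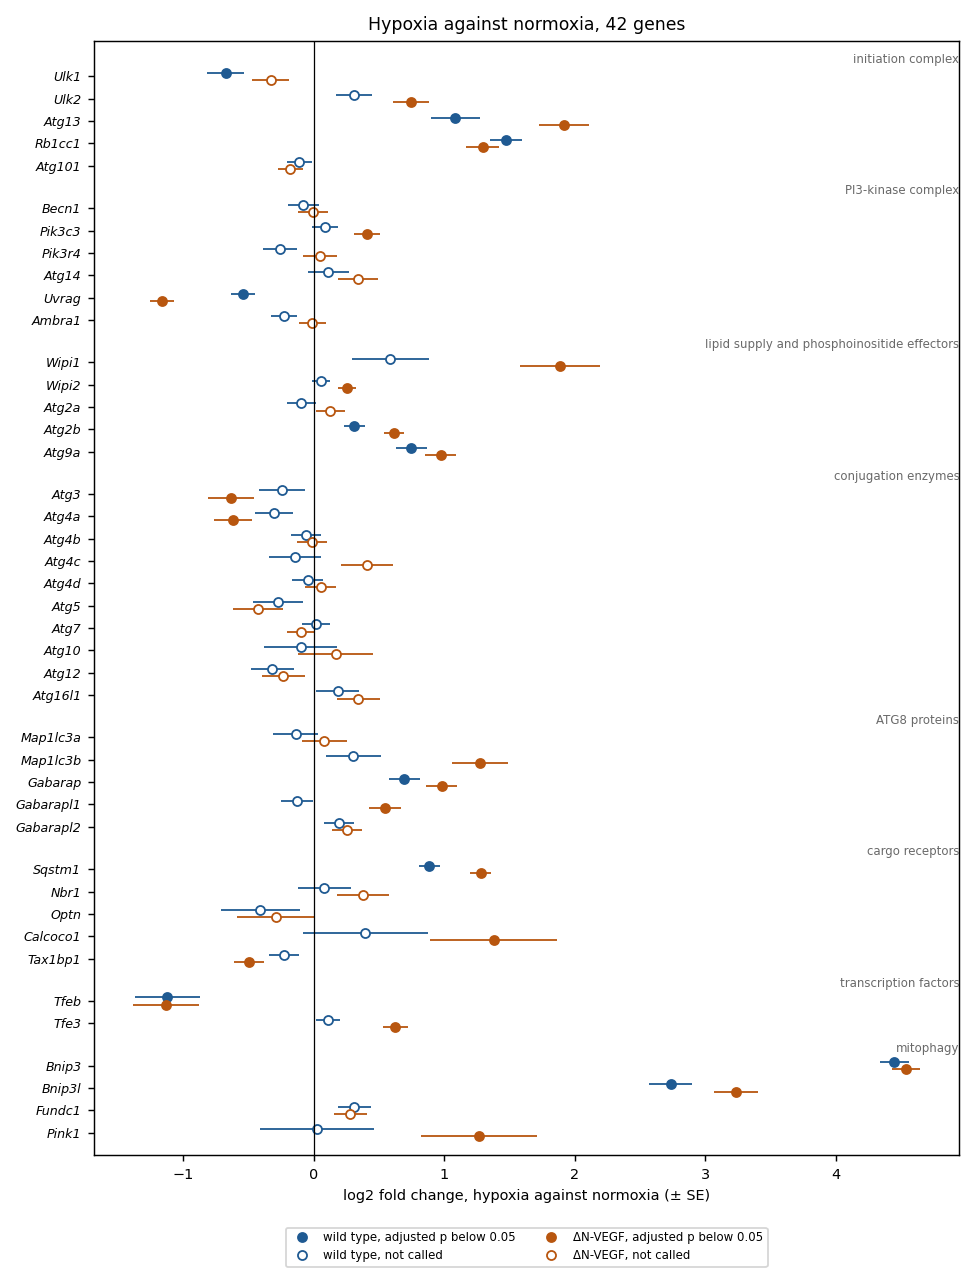
Log2 fold change from normoxia to hypoxia (x axis, ± SE, TMM scaling) of the 42 genes (y axis, grouped by role) in wild type cells (blue) and ΔN-VEGF cells (orange), with filled points for an adjusted p below 0.05. Bnip3 and Bnip3l lie far to the right in both lines, and 17 orange points are filled to the right of 0 against 8 blue points, numbers that become 10 and 7 with total counts.

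The mitophagy receptors Bnip3 and Bnip3l changed the most. Bnip3 was at 13.7, 15.5 and 13.7 CPM in wild type normoxia and at 327, 290.1 and 322 in hypoxia. In ΔN-VEGF cells it was at 19.5, 16.3 and 18.6 CPM in normoxia and at 421, 420.0 and 425 in hypoxia. The normoxia and hypoxia samples were far apart in both lines, and replicate 2 of wild type normoxia did not stand out for this gene. The rise was 21.9-fold in wild type cells (log2 4.45 ± 0.11 SE, adjusted p = 1.7e-09) and 23.3-fold in ΔN-VEGF cells (4.54 ± 0.11, adjusted p = 6.4e-10). The difference of the 2 responses was 0.09 ± 0.13 on the log2 scale (adjusted p = 0.74). Part of the exons of Bnip3 (22.3%) lies opposite Gm45507 and 32.2% of its 80-base stretches recur in other genes. Of the stretches, 17.97% recur in the long non-coding AC160336.1, which had 3772 to 11433 counts in a sample, while the other genes had no more than 5. Reads from the stretches common to Bnip3 and AC160336.1 may have been left uncounted or counted for the wrong gene, so the Bnip3 values are uncertain to that extent.

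Bnip3l was at 65.0, 41.8 and 66.3 CPM in wild type normoxia and at 414, 344 and 397 in hypoxia, and at 60.6, 55.0 and 59.8 CPM in ΔN-VEGF normoxia and at 544, 538 and 570.1 in hypoxia. Here the sample that stands apart was the lowest, yet no normoxia sample came near a hypoxia sample. Bnip3l rose 6.67-fold in wild type cells (log2 2.74 ± 0.16 SE, adjusted p = 5.1e-07; 5.89-fold without replicate 2) and 9.43-fold in ΔN-VEGF cells (3.24 ± 0.17, adjusted p = 9e-08). In CPM per kilobase of exon, which allows genes to be compared, Bnip3 went from 6.31 to 138 and Bnip3l from 14.9 to 99.8 in wild type cells. In ΔN-VEGF cells they went from 8.01 to 186 and from 15.1 to 143, so that the order of the pair turned in both lines. Of the 80-base stretches of Bnip3l, 16.3% recur in the pseudogene Bnip3l-ps, which had no more than 3 counts in a sample. With the shared stretches of Bnip3 given above, the order per kilobase is uncertain to that extent.

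The promoter windows of the genes called at least 2-fold higher in both lines were read from RefSeq (GRCm38.p6, 250 bases before to 50 after the start). Bnip3 and Atg13, shown because they are the genes of that set with a window, are written 5′ to 3′ on the gene's strand (the minus strand for both), with capitals marking ACGTG and GCGTG, the core letters that hypoxia-inducible factors bind, on either strand (CACGT and CACGC on the other).
Bnip3, chr7:138909457-138909756: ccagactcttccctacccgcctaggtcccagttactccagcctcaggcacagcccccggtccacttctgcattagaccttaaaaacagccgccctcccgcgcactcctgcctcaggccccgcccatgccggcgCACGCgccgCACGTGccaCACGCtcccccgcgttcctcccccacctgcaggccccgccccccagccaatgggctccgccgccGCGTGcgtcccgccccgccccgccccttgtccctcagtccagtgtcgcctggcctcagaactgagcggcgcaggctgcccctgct
Atg13, chr2:91710543-91710842: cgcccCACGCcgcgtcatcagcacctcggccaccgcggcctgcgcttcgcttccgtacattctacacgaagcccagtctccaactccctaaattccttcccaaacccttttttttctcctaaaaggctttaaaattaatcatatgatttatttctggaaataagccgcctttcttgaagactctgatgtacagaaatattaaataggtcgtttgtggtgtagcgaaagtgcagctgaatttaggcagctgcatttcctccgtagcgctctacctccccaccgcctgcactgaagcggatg
The Bnip3 window holds 4 separate marked stretches, of which the CACGC letters begin 117 and 99 bases before the start, GCGTG begins 35 bases before it, and CACGT and ACGTG, at 108 and 107 bases, are the same palindrome CACGTG read on both strands. The Atg13 window holds 1, CACGC at 245 bases before the start. Windows were found for 35 of the 42 genes, 42 windows in all, and not for Becn1, Pik3c3, Atg16l1, Bnip3l, Atg12, Map1lc3a and Rb1cc1. ACGTG or its complement was in 38.1% of the member windows and 19.6% of all 32851 windows, and GCGTG in 66.7% and 32.4%. The members' windows were richer in G and C (median 59.3% against 52.7%), and the part of base composition in these shares was not tested. The palindrome CACGTG, the letters bound by TFEB and TFE3 among others, was in 11.9% of member windows and 7.15% of all. A match in these letters is a description of the sequence and not of a bound site.

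The other mitophagy members were Pink1, a kinase that marks damaged mitochondria, and Fundc1, another outer membrane receptor. Pink1 was at 44.5, 8.73 and 46.6 CPM in wild type normoxia and at 33.1, 35.4 and 33.1 in hypoxia. In ΔN-VEGF cells it was at 23.8, 18.5 and 25.2 CPM in normoxia and at 55.6, 53.1 and 53.7 in hypoxia. The wild type result turned on replicate 2: the log2 fold change was 0.03 ± 0.44 SE with it (adjusted p = 0.97) and -0.42 without it (adjusted p = 0.0048). In ΔN-VEGF cells Pink1 rose 2.40-fold (log2 1.27 ± 0.44, adjusted p = 0.032), a call that was lost with total counts and when any 1 of the 6 ΔN-VEGF samples was left out. Without wild type normoxia replicate 2 its adjusted p was 1.2e-07. Fundc1 stayed between 6.18 and 9.73 CPM in the 12 samples, with log2 fold changes of 0.31 and 0.28 in the 2 lines (adjusted p = 0.076 and 0.086; called in ΔN-VEGF cells without wild type normoxia replicate 2, at 0.27 and an adjusted p of 0.047).

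**Figure D2:**
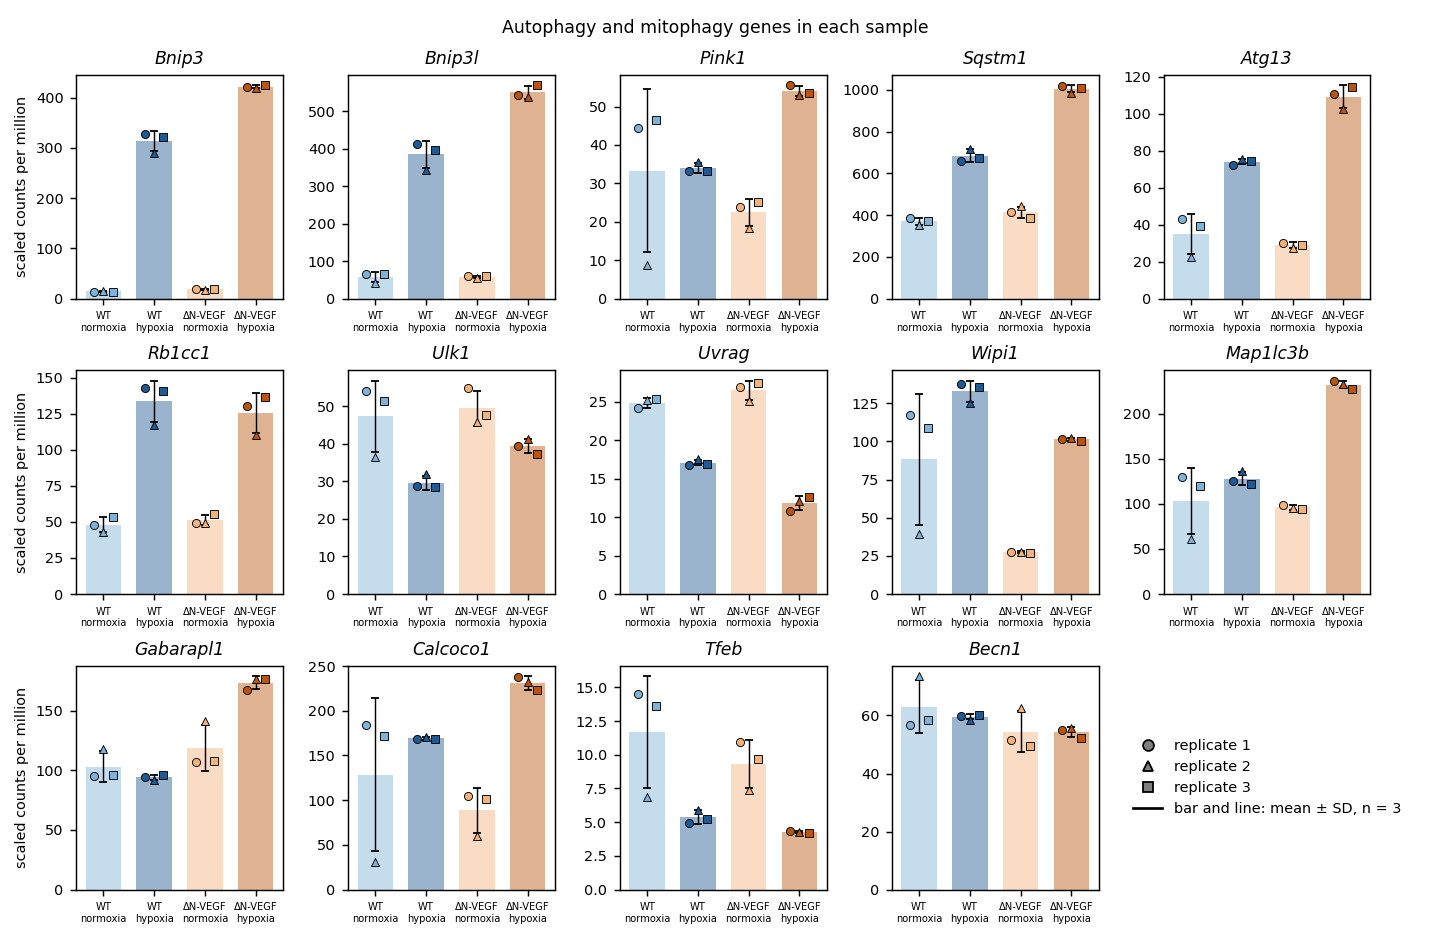
Scaled CPM (y axis, each from 0) of 14 genes in the 4 groups (x axis). Bars and lines are means ± SD of 3 samples and symbols are the replicates. Replicate 2 of wild type normoxia (pale blue triangle) is the lowest of its group for every gene drawn but Bnip3, Uvrag, Gabarapl1 and Becn1.

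Of the 5 genes of the ULK1 initiation complex, 2 rose and 1 fell in the wild type, and 3 rose in ΔN-VEGF cells (adjusted p below 0.05, as for every call below). For this and the other role groups the shares of all genes are the 18.2% higher and 18.3% lower (wild type) and 26.9% and 26.4% (ΔN-VEGF) given above. Atg13, the subunit that links the kinase to its scaffold, was at 43.0, 22.5 and 39.3 CPM in wild type normoxia and at 72.5, 75.6 and 74.3 in hypoxia. In ΔN-VEGF cells it was at 30.3, 27.6 and 29.0 CPM in normoxia and at 111, 103 and 115 in hypoxia. It rose 2.12-fold in wild type cells (log2 1.09 ± 0.19 SE, adjusted p = 0.001; 1.81-fold without replicate 2) and 3.77-fold in ΔN-VEGF cells (1.92 ± 0.19, adjusted p = 1.2e-05). With all 12 samples the difference of the responses, 0.83 ± 0.26, was not called (adjusted p = 0.11), and without replicate 2 it was (1.05, adjusted p = 6.3e-06).

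Rb1cc1, which encodes the scaffold FIP200, was at 48.0, 42.9 and 53.2 CPM in wild type normoxia and at 143, 117 and 141 in hypoxia, and at 49.3, 49.0 and 55.3 CPM in ΔN-VEGF normoxia and at 130.5, 109.9 and 136 in hypoxia. The 2 lines overlapped in each condition. Rb1cc1 rose 2.78-fold (log2 1.48 ± 0.12 SE, adjusted p = 5.9e-06) and 2.45-fold (1.29 ± 0.12, adjusted p = 8.1e-06), and the difference of the responses was -0.18 ± 0.17 (adjusted p = 0.58).

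Ulk1, the kinase itself, went the other way. It was at 53.9, 36.5 and 51.5 CPM in wild type normoxia and at 28.7, 31.8 and 28.4 in hypoxia, and at 54.7, 45.8 and 47.7 CPM in ΔN-VEGF normoxia and at 39.4, 41.2 and 37.4 in hypoxia. All hypoxia samples lay below all normoxia samples of their line. Ulk1 fell to 0.626 of its normoxic level in wild type cells (log2 -0.67 ± 0.14 SE, adjusted p = 0.0033), and in ΔN-VEGF cells the change of -0.33 ± 0.14 missed the threshold with all samples (adjusted p = 0.067) and passed it without wild type normoxia replicate 2 (-0.34, adjusted p = 0.0023) and with total counts (-0.74, adjusted p = 0.004). Ulk2, its close relative, rose 1.68-fold in ΔN-VEGF cells (adjusted p = 0.00094) and was at log2 0.31 in wild type cells (adjusted p = 0.1), while Atg101 stayed between 21.2 and 27.1 CPM. With total counts the rise of Ulk2 was not called (0.34, adjusted p = 0.12), and Atg101 was called lower in both lines (-0.33 and -0.58, adjusted p = 0.015 and 0.00029).

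Of the 6 genes of the PI3-kinase complex, 1 (Uvrag) was called in wild type cells with all samples and 3 without normoxia replicate 2, and Uvrag and Pik3c3 were called in ΔN-VEGF cells. Uvrag, a Beclin 1 partner linked to endosome and autophagosome maturation, was at 24.1, 25.2 and 25.4 CPM in wild type normoxia and at 16.8, 17.5 and 17.0 in hypoxia. In ΔN-VEGF cells it was at 26.98, 25.1 and 27.4 CPM in normoxia and at 10.8, 12.2 and 12.6 in hypoxia. The lines were alike in normoxia and did not overlap in hypoxia. It fell to 0.687 of its normoxic level in wild type cells (log2 -0.54 ± 0.09 SE, adjusted p = 0.00082) and to 0.446 in ΔN-VEGF cells (-1.16 ± 0.09, adjusted p = 2e-06). The difference of the responses was -0.62 ± 0.13 (adjusted p = 0.029), the 1 member called in that test with all 12 samples, and it was called without replicate 2 as well (-0.64, adjusted p = 0.00089). The call was lost on leaving out any 1 of 10 other samples, while the difference stayed between -0.57 and -0.68. Part of the exons of Uvrag (17.6%) lies opposite Gm45187, which had no more than 1 count in a sample.

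Becn1, which encodes Beclin 1, was at 56.9, 73.5 and 58.6 CPM in wild type normoxia and at 60.0, 58.5 and 60.3 in hypoxia, and at 51.4, 62.6 and 49.4 CPM in ΔN-VEGF normoxia and at 54.9, 55.5 and 52.4 in hypoxia. The highest sample of each line was replicate 2 in normoxia, and the conditions overlapped. The log2 fold changes were -0.08 ± 0.12 SE and -0.01 ± 0.12 (adjusted p = 0.63 and 0.98), and -0.30 and -0.40 with total counts, where both were called (adjusted p = 0.016 and 0.0017). On the strand opposite Becn1, Cntd1 covers 43.9% of the exons, with 2 to 18 counts in a sample, and 33% of its 80-base stretches recur in Cntd1. Pik3c3, the catalytic subunit VPS34, rose 1.33-fold in ΔN-VEGF cells (adjusted p = 0.0046) and was at log2 0.09 in wild type cells (adjusted p = 0.51), and the rise was not called with total counts (0.01, adjusted p = 0.97). Pik3r4, Atg14 and Ambra1 had log2 fold changes from -0.26 to 0.34 and no call with all samples. When wild type normoxia replicate 2 was left out, Pik3r4 (-0.40, adjusted p = 0.00063) and Ambra1 (-0.28, adjusted p = 0.021) were called lower in wild type cells and Atg14 higher in ΔN-VEGF cells (0.33, adjusted p = 0.0081). With total counts Pik3r4 was called lower in wild type cells and Ambra1 in both lines (adjusted p = 0.034, 0.016 and 0.019).

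Of the 5 genes for lipid supply and phosphoinositide binding, 2 rose in wild type cells and 4 in ΔN-VEGF cells. Wipi1, which binds the phosphoinositide made by that complex, differed most between the lines in normoxia. It was at 117, 39.1 and 109 CPM in wild type normoxia and at 138, 125 and 136 in hypoxia, and at 27.7, 27.7 and 26.9 CPM in ΔN-VEGF normoxia and at 101.5, 102.4 and 100.5 in hypoxia. Every ΔN-VEGF normoxia sample was below every wild type normoxia sample, replicate 2 included. In normoxia Wipi1 was lower in ΔN-VEGF cells, at 0.310 of the wild type level (log2 -1.69 ± 0.30 SE, adjusted p = 0.012; -2.03 without replicate 2). That call was lost in the 6 normoxia samples alone, with and without the replicate block, and without ΔN-VEGF normoxia replicate 1 or 3. It rose 3.70-fold in ΔN-VEGF cells under hypoxia (1.89 ± 0.31, adjusted p = 0.00038). In wild type cells the change was 0.59 ± 0.30 (adjusted p = 0.14), or 0.24 without replicate 2 (adjusted p = 0.01). The difference of the responses was 1.30 ± 0.42 (adjusted p = 0.11) and 1.64 without replicate 2 (adjusted p = 1.8e-07).

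The remaining genes of this set moved less. Atg9a, the membrane protein whose vesicles seed autophagosomes, rose 1.68-fold and 1.96-fold in the 2 lines, and Atg2b, a lipid transfer protein, rose 1.24-fold and 1.53-fold. Of the Atg9a exons, 31.8% are shared on the same strand with Gm29253, which had no more than 1 count in a sample. The rise of Atg2b in wild type cells was not called with total counts, without a filter on low counts or in the 6 wild type samples alone. Wipi2, a relative of Wipi1 that recruits the conjugation machinery, rose 1.19-fold in ΔN-VEGF cells (log2 0.26 ± 0.07 SE, adjusted p = 0.0095), a direction that turned with total counts (-0.15, adjusted p = 0.12). Atg2a was at log2 -0.10 and 0.13 with no call.

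Of the 10 conjugation enzymes, none was called in wild type cells by edgeR with TMM scaling (0 at an unadjusted p below 0.05, against 22.1% higher and 24% lower of all genes, and 0 by DESeq2), and 2 fell in ΔN-VEGF cells. These were Atg3, the E2-like enzyme that loads ATG8 proteins onto lipid, which went from 24.1, 28.2 and 28.0 CPM in normoxia to 16.8, 17.5 and 17.5 in hypoxia (log2 -0.63 ± 0.18 SE, adjusted p = 0.011), and Atg4a, a protease that trims ATG8 proteins, which went from 5.68, 6.87 and 5.61 to 3.70, 3.89 and 4.23 CPM (-0.62 ± 0.15, adjusted p = 0.0042). Atg4a has 40.0% of its 80-base stretches in common with the pseudogene Atg4a-ps and 9.48% with Syt6, which had no more than 1 count in a sample. On the strand opposite Atg4d, Kri1 covers 19.3% of the exons, with 731 to 1408 counts in a sample against 402 to 715 for Atg4d, so the Atg4d values are uncertain. Log2 fold changes of the 10 ran from -0.32 to 0.18 in the wild type and between -0.63 and 0.41 in ΔN-VEGF cells. With all samples and TMM scaling, Atg5, Atg7, Atg10, Atg12, Atg16l1 and the other Atg4 genes did not pass the test in either line. Total counts called 6 of the 10 lower in wild type cells (Atg3, Atg4a, Atg4b, Atg4d, Atg5 and Atg12) and the same 6 and Atg7 lower in ΔN-VEGF cells (all genes 32.7% and 44.5%). When that sample (wild type normoxia replicate 2) was left out, Atg10, Atg12 and Atg4c were called lower and Atg16l1 higher in wild type cells, at log2 values of -0.41, -0.51, -0.35 and 0.45 (adjusted p = 0.018, 0.00044, 0.027 and 0.00097). In ΔN-VEGF cells that fit called Atg3, Atg4a, Atg5 and Atg12 lower and Atg4c and Atg16l1 higher, the 4 added genes at -0.43, -0.24, 0.40 and 0.34 (Atg5, Atg12, Atg4c and Atg16l1; adjusted p = 0.004, 0.02, 0.0065 and 0.0022).

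Of the 5 ATG8 genes, Gabarap rose in wild type cells, and Gabarap, Gabarapl1 and Map1lc3b rose in ΔN-VEGF cells. Map1lc3b, which encodes LC3B, the usual marker of autophagosomes, was at 129, 61.5 and 119.8 CPM in wild type normoxia and at 125, 136 and 122 in hypoxia. In ΔN-VEGF cells it was at 99.2, 95.3 and 94 CPM in normoxia and at 236, 233 and 228 in hypoxia. Wild type normoxia replicates 1 and 3 lay within the wild type hypoxia values or close to them, and the ΔN-VEGF hypoxia samples stood above all others. Map1lc3b rose 2.42-fold in ΔN-VEGF cells (log2 1.27 ± 0.21 SE, adjusted p = 0.00047) and was at 0.30 ± 0.21 in wild type cells (adjusted p = 0.28; 0.04 without replicate 2, adjusted p = 0.63). The difference of the responses was 0.97 ± 0.30 (adjusted p = 0.096) and 1.22 without replicate 2 (adjusted p = 1.2e-06).

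Gabarapl1 was at 95.2, 118 and 96.0 CPM in wild type normoxia and at 94.4, 91.6 and 96.2 in hypoxia, and at 107, 141 and 108 CPM in ΔN-VEGF normoxia and at 167, 176 and 177 in hypoxia. It did not separate in wild type cells (log2 -0.13 ± 0.12 SE, adjusted p = 0.43) and rose 1.46-fold in ΔN-VEGF cells (0.55 ± 0.12, adjusted p = 0.0032), and the difference of the responses was 0.68 ± 0.17 (adjusted p = 0.058; 0.56 without replicate 2, adjusted p = 0.0066). With total counts Gabarapl1 was not called in ΔN-VEGF cells (0.15) and was called lower in wild type cells (-0.35, adjusted p = 0.011). Opposite Gabarapl1 lies 1700101I11Rik, over 28.3% of the exons, with 2 to 10 counts in a sample. Gabarap rose 1.62-fold and 1.97-fold, and it was the second of the 42 in CPM per kilobase, at 94.4 and 153 in wild type and 106 and 209.6 in ΔN-VEGF cells. Gabarapl2 and Map1lc3a had log2 fold changes between -0.14 and 0.26 and no call with all samples, and without wild type normoxia replicate 2 Gabarapl2 was called higher in both lines (0.32 and 0.25, adjusted p = 0.011 and 0.016).

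Of the 5 cargo receptors, Sqstm1 rose in both lines. It encodes p62, which links ubiquitin to ATG8 proteins and is itself degraded by autophagy. It was at 387, 352 and 372 CPM in wild type normoxia and at 659.5, 718 and 674 in hypoxia, and at 412, 441 and 388 CPM in ΔN-VEGF normoxia and at 1018, 985 and 1011 in hypoxia. The groups did not overlap between conditions, nor between the lines in hypoxia. It rose 1.85-fold (log2 0.89 ± 0.08 SE, adjusted p = 1.1e-05) and 2.43-fold (1.28 ± 0.08, adjusted p = 4.1e-07). Per kilobase it had the highest level of the 42 in every group, from 110 CPM in wild type normoxia to 299 in ΔN-VEGF hypoxia. On the opposite strand Mrnip covers 17.3% of its exons, with 40 to 108 counts in a sample.

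Calcoco1, a receptor of the endoplasmic reticulum, was at 184, 30.4 and 172 CPM in wild type normoxia and at 169, 171 and 168 in hypoxia, and at 104, 59.98 and 102 CPM in ΔN-VEGF normoxia and at 238, 232 and 223 in hypoxia. Replicate 2 was the lowest of both normoxia groups. Calcoco1 rose 2.60-fold in ΔN-VEGF cells (log2 1.38 ± 0.49 SE, adjusted p = 0.033), a call that was lost when any 1 of the 6 ΔN-VEGF samples was left out and with total counts, and that had an adjusted p of 4.1e-06 without the wild type sample. In wild type cells the change was 0.40 ± 0.48 (adjusted p = 0.55) and -0.06 without replicate 2 (adjusted p = 0.77). Tax1bp1, another ubiquitin-binding receptor, fell to 0.710 of its level in ΔN-VEGF cells (adjusted p = 0.0041) and was at log2 -0.23 in wild type cells (adjusted p = 0.15), where total counts called it lower (-0.44, adjusted p = 0.0032). Nbr1 and Optn were not called in either line with all 12 samples, and without wild type normoxia replicate 2 Optn was called lower in wild type cells (-0.72, adjusted p = 0.0062) and Nbr1 higher in ΔN-VEGF cells (0.37, adjusted p = 0.0006).

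The list holds 2 transcription factors, Tfeb and Tfe3, which control many autophagy and lysosome genes. Tfeb was at 14.5, 6.90 and 13.6 CPM in wild type normoxia and at 4.93, 5.92 and 5.22 in hypoxia, and at 10.9, 7.41 and 9.68 CPM in ΔN-VEGF normoxia and at 4.35, 4.25 and 4.20 in hypoxia. Every hypoxia sample lay below every normoxia sample. Tfeb fell to 0.459 of its normoxic level in wild type cells (log2 -1.12 ± 0.25 SE, adjusted p = 0.0047; -1.39 without replicate 2) and to 0.457 in ΔN-VEGF cells (-1.13 ± 0.25, adjusted p = 0.003). Tfe3 rose 1.54-fold in ΔN-VEGF cells (0.63 ± 0.09, adjusted p = 0.00024) and was at 0.11 ± 0.09 in wild type cells (adjusted p = 0.39). With total counts Tfe3 was at 0.22 in ΔN-VEGF and -0.13 in wild type cells, with no call.

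**Figure D3:**
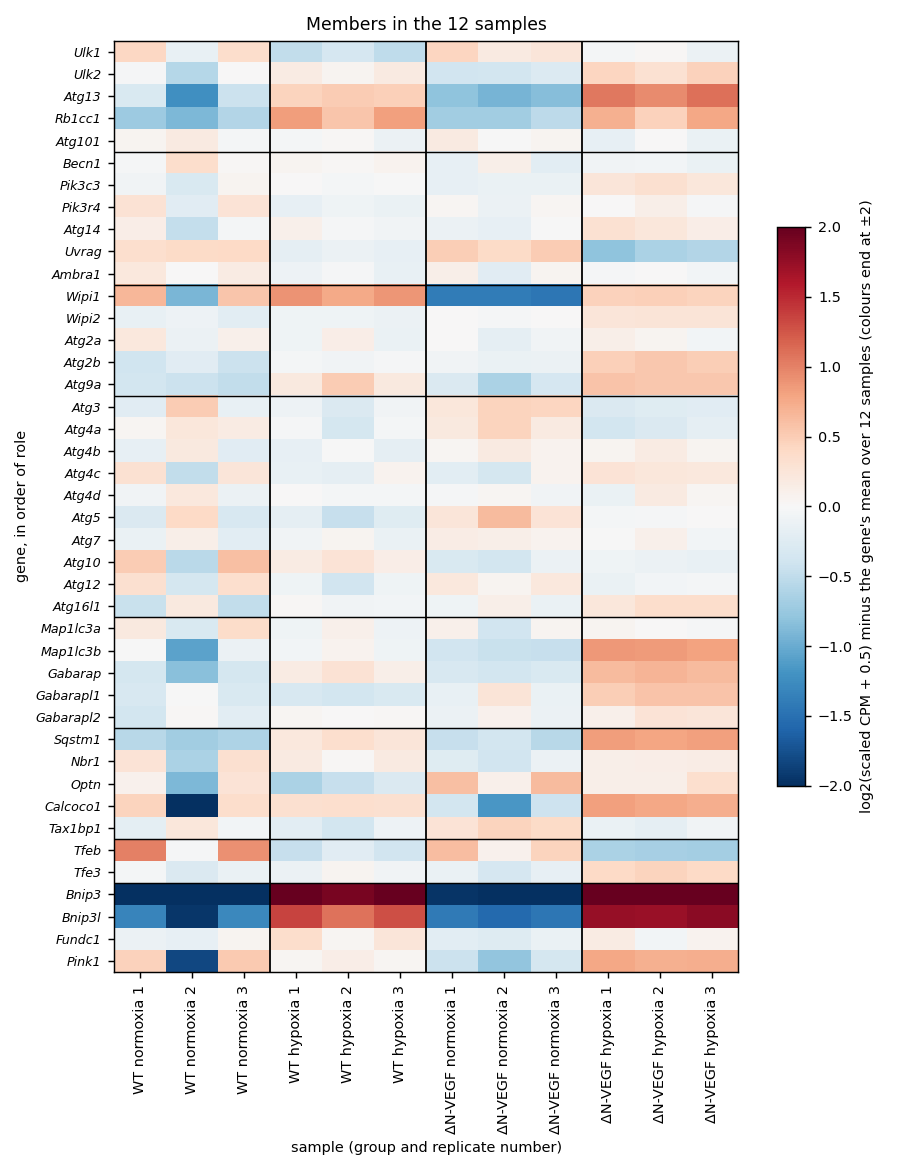
Log2 CPM of the 42 genes (rows, by role) in the 12 samples (columns), each gene centred on its mean. Colours end at ±2 and are relative within a gene, and the column of wild type normoxia replicate 2 differs from its neighbours for Pink1, Calcoco1, Map1lc3b, Wipi1 and Atg13 among others.

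The second question was how the lines differed within a condition. These comparisons share their samples with those above, so they are no independent evidence. In normoxia, edgeR called 0 members higher and 1 (Wipi1) lower in ΔN-VEGF cells, against 1.39% and 2.97% of all genes. At an unadjusted p below 0.05 these numbers were 4 and 2 (6.17% and 12.8% of all genes), and DESeq2 called 4 and 1 (2.69% and 5.47% of the 16774 genes it tested). Same-numbered samples deviated together in normoxia, where replicates 1 and 3 of the 2 lines deviated together across numbers as well (correlations of 0.347 and 0.358, against 0.378 and 0.355 for the same numbers), and the replicate number was also used as a block. The block over all 12 samples gave 0 and 1 (all genes 1.55% and 2.82%). Over the 6 normoxia samples it gave 0 and 0, in a fit that called 0.00718% and 0% of all genes. Leaving out wild type normoxia replicate 2 gave 11 higher and 12 lower (25.7% and 23.2% of all genes), so the count in normoxia rested on that sample. Among those then called, Pink1 was at log2 -1.01 (adjusted p = 1.7e-05), Calcoco1 at -0.99 (adjusted p = 0.00043) and Bnip3 at 0.42 (adjusted p = 0.0018). With all samples they were at -0.57, -0.54 and 0.34 with no call.

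In hypoxia 9 members were higher and 1 lower in ΔN-VEGF cells, against 10.8% and 9.36% of all genes. The 9 were Gabarapl1 (1.84-fold), Map1lc3b (1.82-fold), Sqstm1 (1.47-fold), Atg2b (1.46-fold), Bnip3l (1.43-fold), Tfe3 (1.38-fold), Gabarap (1.37-fold), Bnip3 (1.35-fold) and Wipi2 (1.27-fold), with adjusted p from 0.0011 to 0.037. Uvrag was lower, at 0.691 of the wild type level (adjusted p = 0.0029). None of the 10 differed 2-fold. In this comparison 24 members had all ΔN-VEGF samples above all wild type samples and 5 all below, or 69% against 59.8% of all genes. The median difference of the 42 was 0.22 (all genes, -0.01).

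The spread that the 4 groups share includes the sample that stands apart. The 6 hypoxia samples fitted alone gave 24 members higher and 5 lower (27.9% and 29.1% of 13845 genes), and all samples but that one gave 19 and 3 (21.2% and 21.2%). In the 6-sample fit Pink1 was 1.59-fold higher (adjusted p = 8.3e-08) and Atg13 1.47-fold (adjusted p = 5.6e-07). With total counts the median of all genes was -0.23. The members called were then 3 higher (Gabarapl1, Sqstm1 and Atg2b) and 2 lower (Uvrag and Becn1), against 4.57% and 22.2% of all genes. The members' median stood 0.23 above that of all genes, as with TMM scaling, an offset that a change of scaling hardly moves. The call for Map1lc3b was lost without wild type hypoxia replicate 1 or 3 or ΔN-VEGF hypoxia replicate 1. That for Gabarap was lost without these or the other ΔN-VEGF hypoxia samples, and that for Bnip3l without any 1 hypoxia sample or ΔN-VEGF normoxia replicate 1 or 3.

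**Figure D4:**
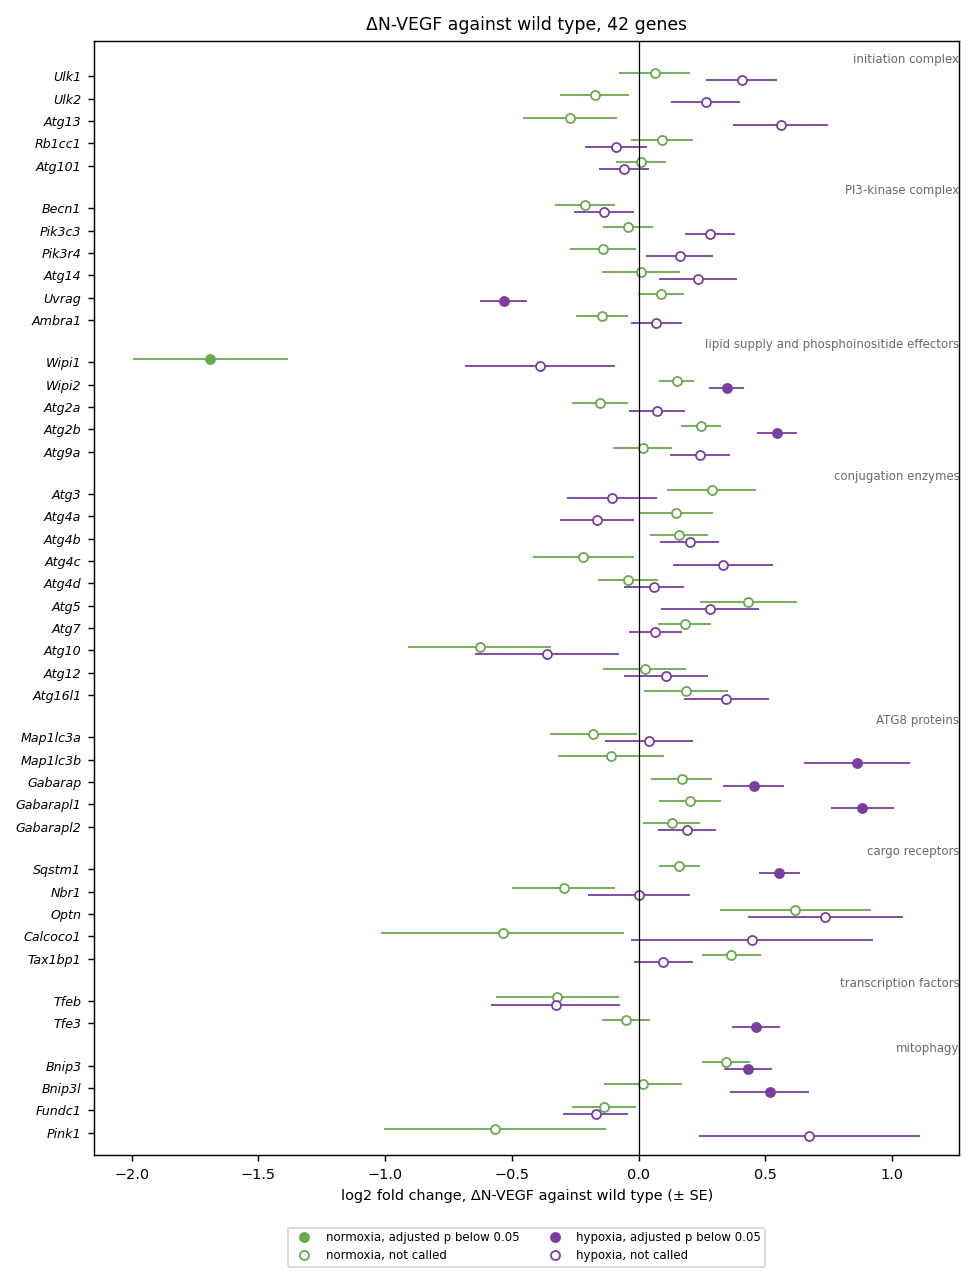
Log2 fold change of ΔN-VEGF against wild type cells (x axis, ± SE, TMM scaling) of the 42 genes (y axis) in normoxia (green) and hypoxia (purple), filled for an adjusted p below 0.05. Filled points are Wipi1 in normoxia and 10 genes in hypoxia, of which Uvrag alone lies left of 0, and with total counts the genes called in hypoxia are 3 to the right and 2 (Uvrag and Becn1) to the left.

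The last question was whether the response to hypoxia differed between the lines. With all 12 samples, 0 members had a larger (more positive) response in ΔN-VEGF cells and 1, Uvrag, a smaller one, against 2.21% and 1.15% of all genes. At an unadjusted p below 0.05 there were 10 and 1 (12.7% and 8.34% of all genes), and DESeq2 called 8 and 1 (7.21% and 3.47% of the 13958 genes it tested). The DESeq2 calls were Atg13, Wipi1, Wipi2, Atg2b, Map1lc3b, Gabarapl1, Sqstm1 and Tfe3, and Uvrag. Without wild type normoxia replicate 2 there were 19 and 4 (21.4% and 23% of all genes). The 42 differences had a median of 0.22 with all samples (all genes, 0.03) and 0.28 without replicate 2 (all genes, -0.01). Those largest without it were Pink1 (1.68), Wipi1 (1.64), Calcoco1 (1.44), Map1lc3b (1.22) and Atg13 (1.05), all with higher values than with it. Of the differences not given above, none was called by edgeR with all 12 samples. Pink1 was at 1.24, Calcoco1 at 0.98, Tfe3 at 0.52, Ulk2 at 0.44 and Ulk1 at 0.34. Pik3c3 was at 0.32, Wipi2 at 0.20, Tax1bp1 at -0.27, Atg4a at -0.31 and Atg3 at -0.39 (adjusted p from 0.062 to 0.44 for all of these). Bnip3l and Sqstm1 were at 0.50 and 0.39 (adjusted p = 0.22 and 0.085).

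**Figure D5:**
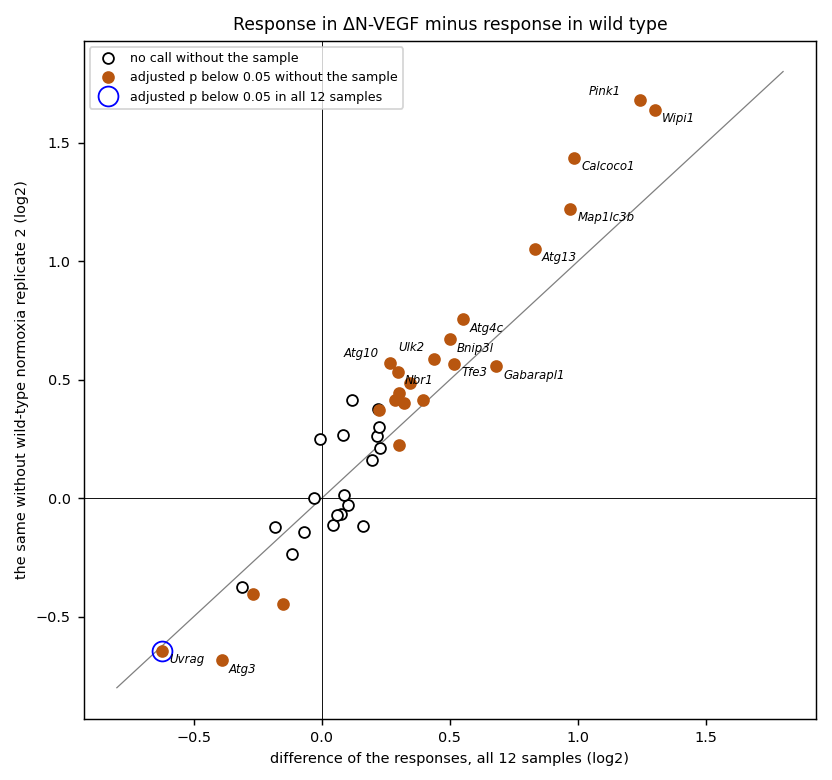
Response of ΔN-VEGF cells minus response of wild type cells for each of the 42 genes (log2), with all 12 samples (x axis) and without wild type normoxia replicate 2 (y axis), beside the line of equal values. Orange points have an adjusted p below 0.05 without that sample (23 genes), and the ringed point is Uvrag, the 1 gene called with all 12.

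Other genes of the pathway were counted by direction. Of 13 further core autophagy genes, 3 rose and 1 fell in the wild type, with 3 and 2 in ΔN-VEGF cells. These were 5 and 2, and 8 and 4, without wild type normoxia replicate 2. In each list below the shares of all genes are those given above (18.2% and 18.3% in the wild type and 26.9% and 26.4% in ΔN-VEGF cells, and without that sample 27.1% and 26.9%, and 32.8% and 34.3%). Rubcn, which encodes Rubicon, an inhibitor of the UVRAG form of the PI3-kinase complex, went from 63.5, 73.3 and 61.2 CPM to 209.5, 232 and 209.9 in the wild type, and in ΔN-VEGF cells from 69.6, 74.3 and 66.0 to 280.0, 281 and 264 CPM. Its samples did not overlap, and the log2 fold changes were 1.72 ± 0.10 SE and 1.98 ± 0.10 (adjusted p = 3e-07 and 6.5e-08). Epg5, a tether for fusion with the lysosome, fell in wild type cells from 214, 54.0 and 209.7 to 53.1, 51.1 and 51.0 CPM, with replicate 2 of normoxia already at the hypoxic level (-1.62 ± 0.38, adjusted p = 0.0059; -2.03 without replicate 2). In ΔN-VEGF cells Epg5 went from 88.6, 86.8 and 90.4 to 67.1, 71.4 and 67.5 CPM, without overlap, at -0.37 ± 0.37 (adjusted p = 0.42; 6.8e-05 without the wild type sample).

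Of 8 further cargo receptors tested, 2 rose and 1 fell in the wild type, with 4 and 1 in ΔN-VEGF cells, and without that sample 4 and 1, and 4 and 2. Tex264, a receptor of the endoplasmic reticulum, rose with log2 fold changes of 1.01 and 1.37. Of 18 further mitophagy genes tested, 2 rose and 3 fell in the wild type, with 4 and 7 in ΔN-VEGF cells, and without that sample 5 and 3, and 5 and 9. Vdac1, the outer membrane channel, rose from 239, 389.6 and 236 CPM to 806, 843 and 780.2 in the wild type, and in ΔN-VEGF cells from 315, 328 and 305 to 1560, 1624 and 1583 CPM (log2 1.49 ± 0.17 SE and 2.33 ± 0.17; 1.78 in the wild type without replicate 2). Pgam5, a mitochondrial phosphatase, fell in ΔN-VEGF cells (-1.06 ± 0.27, adjusted p = 0.0065). Of 12 genes for fusion with the lysosome, 1 rose and 1 fell in the wild type, with 2 and 1 in ΔN-VEGF cells, and without that sample 1 and 3, and 3 and 3. With total counts the core list had 2 higher and 3 lower in the wild type, and 1 and 4 in ΔN-VEGF cells. In the same order the receptors had 2 and 2, and 2 and 3, and the mitophagy list 1 and 11, and 1 and 13. The fusion list had 0 and 7 in both lines. Of all genes, that scaling called 12.8% higher and 32.7% lower in the wild type, and 15.3% and 44.5% in ΔN-VEGF cells.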

How the data were processed

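RNA-seq counts of 12 samples in 4 groups were used. The authors prepared libraries with a TruSeq kit (version 2) that keeps no strand, sequenced single reads of 80 bases, aligned them to GRCm38.p6 with the annotation of release 94, and deposited raw counts of reads per gene. The submitters' processing notes list FastQC 0.11.5, Trim Galore, cutadapt 1.10, TopHat2 2.1.0, Bowtie2 2.2.6, HTSeq 0.6.1 and DESeq2 1.18.1. The setting for strand in the counting is not given in the sources used here, so values are uncertain for genes that share exons with a gene on the other strand or sequence with a near-identical copy. Values are also uncertain for genes that share exons with a gene on the same strand.

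Counts were tested with edgeR 4.0.16 (limma 3.58.1, R 4.3.3): low counts were removed with filterByExpr, libraries scaled by TMM, the 4 groups fitted together, and p-values from the quasi-likelihood test adjusted by Benjamini-Hochberg across the 14724 genes that remained. A gene was called at an adjusted p below 0.05, and fold changes of at least 2 are named as such. The CPM printed are scaled by the TMM factors, which ran from 0.825 to 1.21. Alternatives were DESeq2 1.42.0, RLE size factors, total counts, other filters, fewer samples and the replicate number as a block. The fits were also run on simulated counts that held no difference between the lines and no sample that stands apart. That run does not bear on replicate 2 of wild type normoxia. Same-numbered samples deviated together between the lines in normoxia (mean correlation of deviations across genes 0.41, lowest pair 0.36; replicates 1 and 3 did so across numbers too) and not in the other comparisons (lowest pair 0.047 or less). The 42 genes and all other lists were chosen with earlier results of these data known. Every member may be named, and values in each sample are given for members called with a 2-fold change in a group comparison or called in the difference of the responses, and for Bnip3, Bnip3l, Ulk1, Becn1, Sqstm1, Map1lc3b, Gabarapl1, Tfeb and Pink1. Atg3 and Atg4a were given theirs in ΔN-VEGF cells after their values were seen. Of the other lists, up to 4 genes each are named that were called with a 2-fold change under hypoxia or in the difference of the responses. Exon overlaps and lengths came from GENCODE M21 and promoter windows from RefSeq. Figures were drawn with matplotlib.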

Additional observations from a re-analysis of the deposited data

Results flagged for a closer look

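The response of Uvrag differed between the lines: the log2 fold change under hypoxia was -0.54 in the wild type and -1.16 with the deletion, a difference of -0.62 (adjusted p = 0.029, edgeR's quasi-likelihood test of the interaction with Benjamini-Hochberg adjustment). With 3 samples a group, single samples were not tested as outliers.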

How the results depend on the processing

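Counts of members called are given as higher and lower. A minimum fold change of 2 left 4 and 1 under hypoxia in wild type cells, 9 and 2 in ΔN-VEGF cells, 0 and 0 between the lines in hypoxia, and 0 lower in the difference of the responses (all genes 9.17% and 6.53%, 14.6% and 12.7%, 2.87% and 3.94%, and 0.672%). Total counts gave 15 lower in wild type and 10 and 14 in ΔN-VEGF cells, 3 and 2 between the lines in hypoxia and 1 higher in the difference of the responses (0.998% of all genes there). Among genes called in either fit they turned Wipi2 (-0.15) and Atg4d (-0.35) in ΔN-VEGF cells. Leaving out both normoxia samples numbered 2 gave 13 lower in wild type and 10 lower in ΔN-VEGF cells, 12 and 13 between the lines in normoxia, 24 and 5 in hypoxia, and 20 and 4 in the difference of the responses (all genes 32.5% and 36% lower in the 2 lines, 27.8% and 25.8%, 27.5% and 28.3%, and 25.8% and 27%). Among genes called in either fit it turned Nbr1 (-0.16) and Pink1 (-0.42) in wild type cells. Uncalled genes that changed sign are not counted. Pink1 ran from -0.42 (without wild type normoxia replicate 2 alone) to 0.35 over the samples left out singly. The cause was not tested. The 6 samples of a comparison alone gave 8 lower in ΔN-VEGF cells (all genes 35.7%), 0 lower in normoxia (0.0574%), and 24 and 5 in hypoxia. DESeq2 gave 4 higher in normoxia and 8 higher in the difference of the responses, a minimum of 10 counts gave 1 higher there (3.02% of all genes), and no filter 0 lower (0.712%). The replicate block gave 1 higher (Gabarapl1) in the difference of the responses (2.15% of all genes) and changed no other count of members by over 1.5 times, and in the 6 normoxia samples, an alternative chosen after seeing the data, it gave 0 lower. Leaving out each sample in turn gave 8 to 11 higher and 3 to 10 lower in wild type cells, 15 to 23 and 5 to 8 in ΔN-VEGF cells, 0 to 11 and 0 to 12 between the lines in normoxia, 6 to 19 and 1 to 3 in hypoxia, and 0 to 19 and 0 to 4 in the difference of the responses. Each highest value was reached without wild type normoxia replicate 2. RLE size factors gave the same counts as TMM scaling in all 5 comparisons. Limits: 3 samples a group, edited cells whose clone or clones are not stated, and normoxia groups in which replicate 2 differs.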

Other observations

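Of 24 lysosomal genes, 4 rose and 8 fell under hypoxia in the wild type, and 5 and 9 in ΔN-VEGF cells (median log2 fold changes -0.25 and -0.18, against -0.07 and -0.01 over all genes, of which 18.2% rose and 18.3% fell in the wild type and 26.9% and 26.4% in ΔN-VEGF cells). Without wild type normoxia replicate 2 these counts were 4 and 12, and 6 and 12 (all genes 27.1% and 26.9%, and 32.8% and 34.3%). With total counts they were 1 and 16 in both lines (all genes 12.8% and 32.7%, and 15.3% and 44.5%). Gla, the lysosomal alpha-galactosidase, fell from 27.1, 29.0 and 28.0 CPM to 10.1, 10.8 and 9.28 in the wild type, and in ΔN-VEGF cells from 42.7, 40.2 and 43.1 to 13.6, 13.2 and 14.5 CPM (log2 -1.48 and -1.61). Ctsl, a cysteine protease, fell by 1.58 and 0.80, and Sgsh, a sulfatase, by 0.97 and 1.28 on the log2 scale. Ctsa, a protective protease, rose by 1.01 and 1.49.

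Among 10 further transcriptional regulators tested, 1 rose and 2 fell in the wild type, with 2 and 2 in ΔN-VEGF cells (all genes 18.2% and 18.3%, and 26.9% and 26.4%). Without wild type normoxia replicate 2 these were 1 and 5, and 2 and 3 (all genes 27.1% and 26.9%, and 32.8% and 34.3%). With total counts they were 1 and 3 in both lines (all genes 12.8% and 32.7%, and 15.3% and 44.5%). Foxo3, a factor that controls autophagy genes in several tissues, was at 56.1, 17.2 and 56.7 CPM in wild type normoxia and at 134, 134 and 139 in hypoxia, and at 39.1, 31.6 and 38.6 CPM in ΔN-VEGF normoxia and at 274, 250 and 268 in hypoxia. It rose in both lines (log2 1.65 ± 0.34 SE and 2.86 ± 0.35, adjusted p = 0.0029 and 5.4e-05; 1.27 in the wild type without replicate 2). Mitf, a relative of Tfeb, fell in wild type cells (-1.23, adjusted p = 0.049; -1.65 without replicate 2, where it was also called lower in ΔN-VEGF cells at -0.60, adjusted p = 0.023), where replicate 2 of normoxia was at 1.83 CPM and the other samples at 7.62 and 7.76. Fnip2, a partner of folliculin, fell by 1.03 in wild type and by 0.97 in ΔN-VEGF cells.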
